A study of Mus musculus with 2 samples.

Results

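Polycomb repressive complex 2 (PRC2) is the enzyme complex that methylates histone H3 at the lysine named H3K27. Its trimethylated product, H3K27me3, marks silenced developmental genes in embryonic stem cells. The 10 genes described here encode its subunits and were taken by symbol, out of 23889 symbols listed in each library. All 10 were found, and all 10 had an FPKM of at least 1 in both libraries. FPKM scales the fragments of a gene to its length and to the size of the library. EZH1 and EZH2 are alternative catalytic subunits, and EED, SUZ12 and RBBP4 form the core with them. MTF2, PHF1 and PHF19 are the Polycomb-like proteins of the form named PRC2.1, while JARID2 and AEBP2 define the form named PRC2.2. PRC2 acts beside PRC1, which ubiquitinates histone H2A. USP21 has been described as a deubiquitinase of H2A, and JARID2 and AEBP2 are known to contact nucleosomes with ubiquitinated H2A.

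The RNA came from E14 cells, an embryonic stem cell line from a mouse labelled 19/Ola that grows without feeder cells in medium with serum and LIF. One library was made from cells of normal genotype transfected with a control shRNA, and 1 from cells with a USP21 shRNA (USP21 knockdown), both harvested after 3 days. The labels do not say which USP21 shRNA was used, and 1 line was studied. With 1 library per group there were no replicates, so no difference below was tested, and variation between cultures or library preparations cannot be told apart from the knockdown.

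The targeted gene, Usp21, was at FPKM 26.2 in the control library and at 3.49 after USP21 shRNA, a log2 ratio of -2.87. The 10 listed markers of embryonic stem cells lay between 54.8 and 1849 in the control library and between 74.0 and 1285 in the other. Their median log2 ratio was -0.23, and -0.06 with both libraries rescaled to equal sums. Nanog had the lowest, at 467.1 and 257.7 (log2 ratio -0.86), followed by Dppa5a at -0.52. With the trend of transcript length described below subtracted, Nanog was at -0.82 and Dppa5a at -0.26. Of the 10 markers 8 were below 0, while Fgf4 (log2 ratio 0.43) and Utf1 (0.08) were above it. Of 10 fibroblast markers 3 reached an FPKM of 1, and the summed FPKM of all 10 was 22.9 and 12.1. Thy1 had the highest level, at 17.3 and 5.29, and the lower sum rests on it. Also past an FPKM of 1, Pdgfra was higher with the USP21 shRNA, at 2.48 and 4.22 (log2 ratio 0.75). Pdgfrb was lower, at 1.65 and 1.14 (log2 ratio -0.49). Lum was listed at 0 in both libraries and Postn at 0 with the USP21 shRNA. The part of either marker list in the values below was not tested. In RNA of whole cultures, fewer cells that express a gene and less RNA per cell cannot be told apart. Summed FPKM was 613617 for the control shRNA and 543206 for the USP21 shRNA. The files give no counts, so the absolute depth is unknown. Among 1439 genes above 0 and under an FPKM of 0.1 in both libraries, the most frequent log2 of control over USP21 shRNA was -0.31. If genes at that value held equal numbers of fragments, the control shRNA library was about 1.24 times as deep as the other. Only 48 of the 1439 genes lay at that value, so the figure is rough.

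In the control library the PRC2 genes fell into 7 genes of high level and 3 of low level. Rbbp4, which encodes a histone-binding protein shared with other chromatin complexes, was highest, at an FPKM of 126.5. Eed (93.6), Suz12 (88.5), Mtf2 (80.2), Jarid2 (71.0), Ezh2 (53.1) and Aebp2 (52.8) followed. Phf19 (5.24), Ezh1 (4.10) and Phf1 (2.88) came last, and a gap of 10.1-fold in FPKM separated Phf19 from Aebp2. With the USP21 shRNA the same 3 genes were lowest, below a gap of 4.92-fold under Ezh2. The order of the other 7 differed. Behind Rbbp4 at 111.7 came Aebp2 at 103.0 and then Jarid2 at 100.5. Suz12 (86.1), Eed (81.5), Mtf2 (56.0) and Ezh2 (45.7) were below them. Neighbours in these orders were as close as 1.01-fold (Ezh2 and Aebp2 in the control library) and 1.025-fold (Aebp2 and Jarid2 with the USP21 shRNA), and without replicates no pair can be said to differ. FPKM is scaled to length, so these levels can be set side by side between genes. The comparison is approximate, since the transcript lengths used and the handling of shared fragments are not given in the sources used here.

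**Figure D1:**
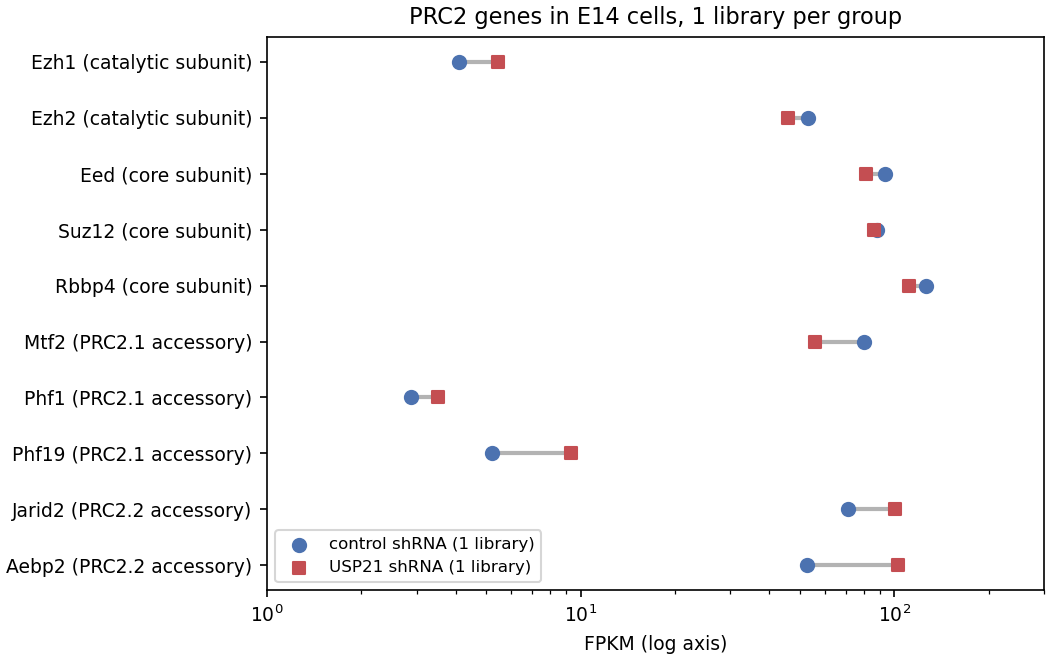
FPKM of the 10 PRC2 genes on a log axis, with a circle for the control shRNA library and a square for the USP21 shRNA library, 1 library each and no error bars. Ezh1, Phf1 and Phf19 lie below an FPKM of 10 in both libraries, and the widest gaps between circle and square are those of Aebp2 (52.8 and 103.0) and Phf19 (5.24 and 9.30).

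The difference between the libraries was measured as log2((FPKM USP21 shRNA + 0.1)/(FPKM control shRNA + 0.1)). The added 0.1 slightly understates the change of low genes. This log2 ratio ran from -0.52 for Mtf2 to 0.96 for Aebp2. Its median over the 10 genes was 0.12, against 0.0031 over the 11927 genes that reached an FPKM of 1 in either library. No PRC2 gene reached a log2 ratio of 1 in either direction, a size reached by 2.3% of all these genes upward and 2.03% downward. A log2 ratio of at least 0.5 was found for 2 PRC2 genes (Aebp2 and Phf19), against 10.1% of all genes. A log2 ratio of -0.5 or lower was found for 1 (Mtf2), against 8.59%. With both libraries rescaled to equal sums, which shifts the median of all genes from 0.0031 to 0.18, 4 PRC2 genes were at 0.5 or more and 0 at -0.5 or lower, against 18.8% and 5.0% of all genes. Jarid2 (0.68) and Ezh1 (0.59) then joined Aebp2 and Phf19, and Mtf2 was at -0.34. Of the 10 genes 5 had a log2 ratio below 0, as did 49.6% of all genes. That count is the one found for genes in general.

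**Figure D2:**
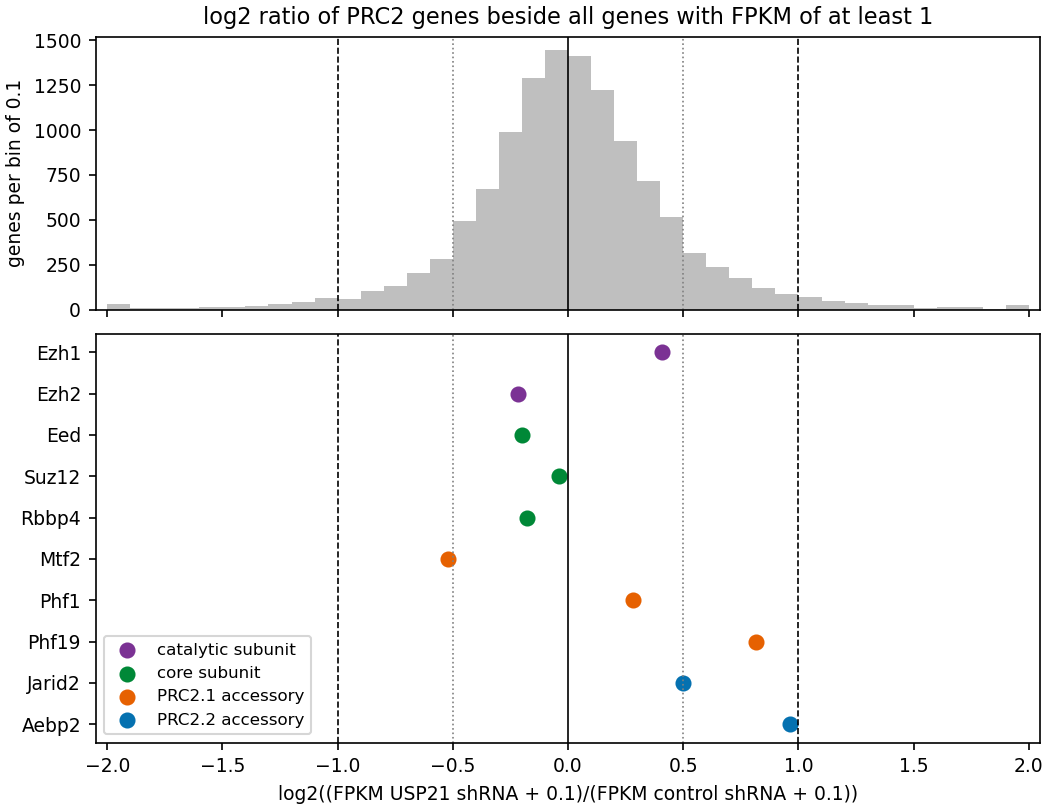
Top, number of genes per bin of 0.1 in the log2 ratio (USP21 shRNA over control shRNA) over all genes that reached an FPKM of 1 in either library, the outermost bins holding all genes beyond them. Bottom, the log2 ratio of each PRC2 gene, coloured by its role in the complex. Dashed lines mark log2 ratios of -1 and 1 and dotted lines -0.5 and 0.5. Aebp2 lies at 0.96 and Mtf2 at -0.52, and the 3 core subunits between -0.20 and -0.04.

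As deposited, the core subunits differed least. Suz12 (chromosome 11, 79993106 to 80034123, plus strand, in GRCm38 as for all genes here), which encodes the scaffold of the complex, was at 88.5 in the control library and 86.1 with the USP21 shRNA, a log2 ratio of -0.04. Eed (chromosome 7, 89954654 to 89980983, minus strand), whose protein binds H3K27me3 and stimulates the enzyme, was at 93.6 and 81.5, a log2 ratio of -0.20. Rbbp4 (chromosome 4, 129307100 to 129335370, minus strand) was at 126.5 and 111.7, a log2 ratio of -0.18. As deposited, all 3 were slightly lower with the USP21 shRNA, but with equal sums Suz12 was at 0.14, Eed at -0.02 and Rbbp4 at -0.0046. Their log2 ratios lay between the quartiles of genes with a mean FPKM of at least 10, which were -0.22 and 0.16. Of the 31-base words of Rbbp4, 5.89% also occur in other annotated genes, and how such fragments were assigned is not given in the sources used here. Rbbp7, a paralog of Rbbp4 that can take its place, was at 137.7 and 165.1, a log2 ratio of 0.26. The ratio of Rbbp7 to Rbbp4 in FPKM was 1.09 without and 1.48 with the USP21 shRNA.

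As deposited, Ezh2 was lower and Ezh1 higher with the USP21 shRNA, while with equal sums Ezh2 was near 0, at -0.04, and Ezh1 at 0.59. Ezh2 (chromosome 6, 47530139 to 47595341, minus strand), the main methyltransferase of dividing cells, was at 53.1 and 45.7, a log2 ratio of -0.22. Ezh1 (chromosome 11, 101191115 to 101226463, minus strand), a weaker enzyme that prevails in resting cells, was at 4.10 and 5.47, a log2 ratio of 0.41. Of the 11927 genes 25.2% had a log2 ratio below that of Ezh2 and 85.9% one below that of Ezh1. The log2 ratio of Ezh1 was 0.62 above that of Ezh2. This difference compares both genes within each library, so no scaling of a library as a whole moves it beyond the effect of the added 0.1. Ezh2 was the more abundant of the pair in both libraries, at 13.0 times the FPKM of Ezh1 in the control library and 8.36 times with the USP21 shRNA. The share of Ezh1 in their summed FPKM was 7.16% and 10.7%.

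As deposited, the largest differences were those of the accessory genes Aebp2, Phf19 and Mtf2, while Phf1 differed less than Ezh1. Aebp2 (chromosome 6, 140622663 to 140678472, plus strand), a zinc-finger protein that stabilises the complex, was at 52.8 in the control library and 103.0 with the USP21 shRNA. This was 1.95-fold higher, a log2 ratio of 0.96 that lay above that of 97.4% of the 11927 genes. Jarid2 (chromosome 13, 44729474 to 44921643, plus strand), a catalytically inactive member of the Jumonji family that recruits and activates PRC2, was at 71.0 and 100.5. Its log2 ratio, 0.50 after rounding and just under the 0.5 used above, exceeded that of 89.9% of them. Both PRC2.2 genes were therefore higher with the USP21 shRNA.

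Of the PRC2.1 genes among the 10 PRC2 genes, the most abundant was lower and the others were higher. Mtf2 (chromosome 5, 108065674 to 108109004, plus strand), a DNA-binding subunit that brings PRC2 to CpG islands, was at 80.2 and 56.0, a log2 ratio of -0.52. Only 8.0% of the 11927 genes had a lower log2 ratio. Phf19 (chromosome 2, 34893757 to 34914026, minus strand), a reader of methylated H3K36, was at 5.24 and 9.30, a log2 ratio of 0.82 that exceeded that of 96.1% of genes. Phf1 (chromosome 17, 26933052 to 26937908, plus strand), a reader of the same mark, was at 2.88 and 3.52, a log2 ratio of 0.28. Low genes were more spread. Among genes that reached an FPKM of 1 in either library and had a mean below 10, the central 90% of log2 ratios ran from -0.84 to 0.93. Some of these genes have a mean under 1. Among genes with a mean of at least 10 the central 90% ran from -0.53 to 0.52. Phf19, Phf1 and Ezh1 lay within the first range. Of the 7 abundant PRC2 genes Aebp2 lay outside the second, and Mtf2 and Jarid2 lay just inside it.

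The summed FPKM of the PRC2.1 genes Mtf2, Phf1 and Phf19 was 88.4 in the control library and 68.8 with the USP21 shRNA. That of the PRC2.2 genes Jarid2 and Aebp2 was 123.8 and 203.5. These sums leave out Epop, a further PRC2.1 gene described below. Among the genes summed here, the PRC2.2 share of the accessory FPKM was thus 58.4% and 74.7%. The log2 of PRC2.1 over PRC2.2 was lower by 1.08 with the USP21 shRNA (-0.49 against -1.57). By itself the PRC2.2 sum had a log2 ratio of 0.72 and the PRC2.1 sum one of -0.36. Mtf2 held 90.8% and 81.4% of the PRC2.1 sum. Without Mtf2, when the PRC2.1 sum is that of the low genes Phf1 and Phf19, the difference was -0.06. Without Aebp2 it was -0.86. Epop was added to the PRC2.1 sum only after the values had been seen. With it, PRC2.1 over PRC2.2 FPKM was 2.06 in the control library and 0.869 with the USP21 shRNA. PRC2.1 was then the larger sum in the control library and PRC2.2 the larger with the USP21 shRNA. Relative to Suz12, the FPKM of Mtf2 was 0.907 and 0.650, that of Jarid2 0.803 and 1.17, and that of Aebp2 0.597 and 1.20. Mtf2 exceeded both PRC2.2 genes in the control library, at 1.13 times Jarid2 and 1.52 times Aebp2, and lay under both with the USP21 shRNA, at 0.557 and 0.543 times. These are ratios of RNA levels, and protein was not measured in these files.

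**Figure D3:**
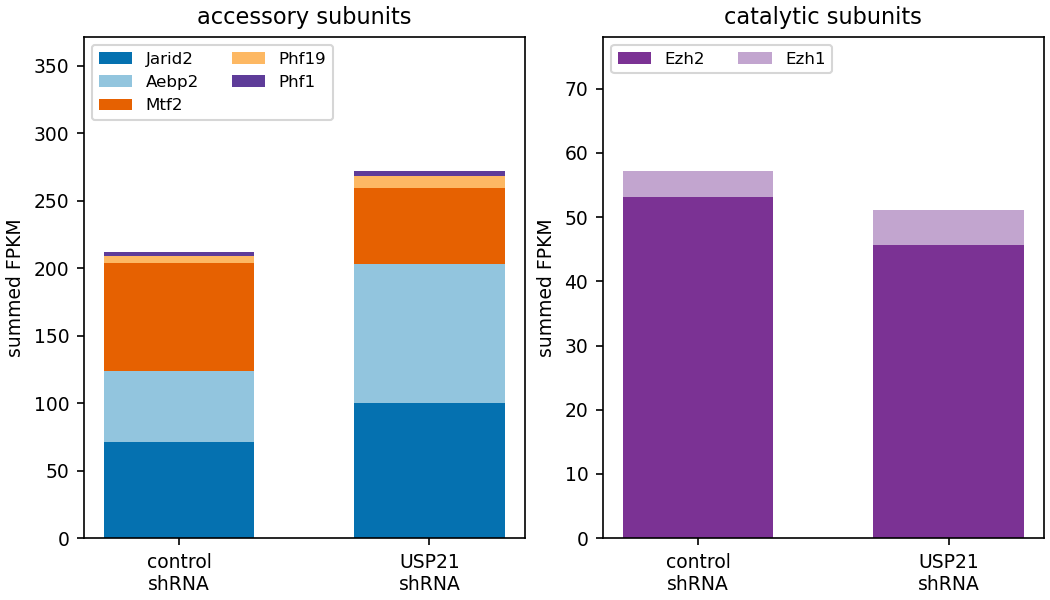
Summed FPKM of the 5 accessory subunits (left) and of the 2 catalytic subunits (right) in the control shRNA and USP21 shRNA libraries, 1 library each, stacked by gene on linear axes that start at 0. The left bars leave out Epop, a further PRC2.1 gene described below. On the left the blue segments (Jarid2 and Aebp2) hold 58.4% of the control bar and 74.7% of the USP21 shRNA bar. On the right Ezh1 holds 7.16% and 10.7%.

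Transcript length moved with the log2 ratio over all genes, so it was set beside the PRC2 values. Across 11854 genes with a length in GENCODE M21, Spearman's rho of length and log2 ratio was 0.316, given as a description across genes of the same 2 libraries. With the genes in 10 equal groups by length, the medians ran from -0.22 for the shortest transcripts to 0.24 for the longest. The 5 PRC2 genes that were higher had transcripts of 2526 to 5997 bases, with a median of 3741. The 5 that were lower had 2067 to 4407, with a median of 4060. Jarid2 had the longest, and after subtracting the length trend its log2 ratio was 0.35. Aebp2 was at 0.98 after the correction, Phf19 at 0.77, Ezh1 at 0.34 and Mtf2 at -0.58. The sign of all 10 was the same with and without it. Aebp2 has 5 basic transcripts of 1393 to 5932 bases, and with the longest of them its corrected log2 ratio was 0.82. Which Aebp2 transcripts the fragments came from cannot be read from 1 value per symbol. Of the 31-base words of Aebp2, 4.2% also occur in Gm14240, which is not listed in the files.

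**Figure D4:**
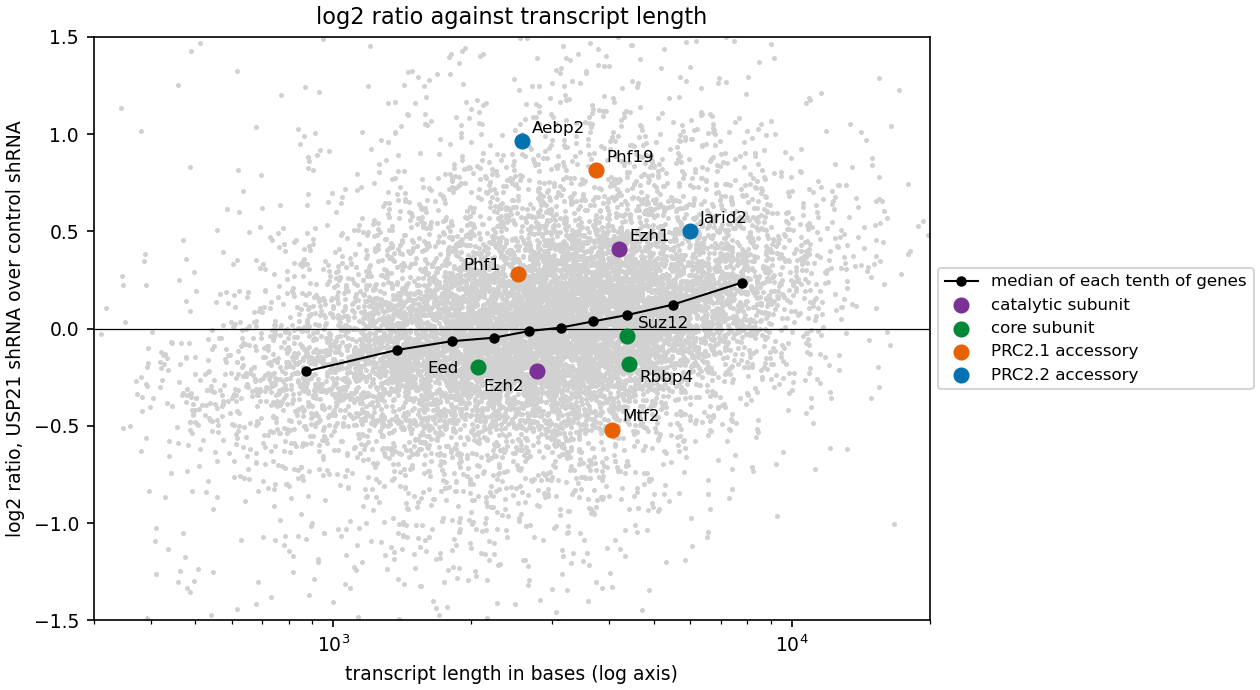
log2 ratio (USP21 shRNA over control shRNA) against transcript length in bases on a log axis for the 11854 genes that reached an FPKM of 1 in either library and had a length (grey), with the median of each of 10 equal groups by length (black line) and the PRC2 genes coloured by role. Genes beyond the axes are not drawn. The black line runs from -0.22 to 0.24, Aebp2 and Phf19 lie above it at 0.96 and 0.82, and Mtf2 lies below it at -0.52.

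Promoter sequences were read to see what the PRC2 genes share, and those of 3 accessory genes that differed between the libraries are shown, with that of Ezh2 for its E2F letters. That of Phf19, whose log2 ratio of 0.82 was larger in size than those of Jarid2 and Mtf2, is not shown. RefSeq windows of GRCm38.p6 reach from 250 bases before to 50 bases after a transcript start, and all 10 PRC2 genes had at least 1, 14 in all. Both strands were searched for 6 motifs. These were GGGCGG, known as the GC box, the letters CCAAT of the box of that name, and TTTGGCGC or TTTCGCGC, which E2F factors bind. The others were CCGGAAG for ETS factors, TGACGTCA of the cAMP response element (CRE) and TATAAA of the TATA box. No motif contains another. The windows shown are those of Aebp2 (the second of 3, chr6:140624659-140624958, plus strand), Jarid2 (the first of 2, chr13:44730524-44730823, plus strand), Mtf2 (the first of 2, chr5:108065424-108065723, plus strand) and Ezh2 (chr6:47594981-47595280, minus strand). Capitals mark every match.
Aebp2: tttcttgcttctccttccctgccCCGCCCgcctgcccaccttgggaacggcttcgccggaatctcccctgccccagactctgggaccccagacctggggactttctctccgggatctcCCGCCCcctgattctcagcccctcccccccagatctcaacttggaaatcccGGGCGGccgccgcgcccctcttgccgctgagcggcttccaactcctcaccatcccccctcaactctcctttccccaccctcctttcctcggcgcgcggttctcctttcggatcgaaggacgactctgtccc
Jarid2: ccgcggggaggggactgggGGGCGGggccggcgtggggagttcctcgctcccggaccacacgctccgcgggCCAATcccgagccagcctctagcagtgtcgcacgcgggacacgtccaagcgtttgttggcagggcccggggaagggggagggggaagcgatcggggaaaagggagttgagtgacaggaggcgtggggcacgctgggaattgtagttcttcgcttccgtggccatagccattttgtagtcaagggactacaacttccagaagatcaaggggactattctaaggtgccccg
Mtf2: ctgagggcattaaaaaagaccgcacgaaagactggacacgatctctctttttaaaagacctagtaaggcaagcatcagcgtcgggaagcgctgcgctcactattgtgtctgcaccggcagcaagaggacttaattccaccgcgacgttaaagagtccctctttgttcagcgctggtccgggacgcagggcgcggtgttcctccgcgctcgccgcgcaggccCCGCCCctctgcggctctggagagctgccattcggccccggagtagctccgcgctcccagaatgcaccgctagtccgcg
Ezh2: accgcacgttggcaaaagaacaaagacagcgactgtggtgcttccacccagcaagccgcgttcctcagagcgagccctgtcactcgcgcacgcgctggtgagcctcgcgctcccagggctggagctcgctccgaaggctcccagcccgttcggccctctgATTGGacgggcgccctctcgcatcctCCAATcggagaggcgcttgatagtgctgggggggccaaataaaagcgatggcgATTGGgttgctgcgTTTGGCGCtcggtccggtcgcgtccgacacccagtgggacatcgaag

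A GC box was found in 9 of the 14 PRC2 windows, including those shown for Aebp2, Jarid2 and Mtf2, and in 35.7% of all 32851 windows. A CCAAT box was found in 8, including those of Jarid2 and Ezh2, and in 37.4% of all. The E2F letters were found in 1, that of Ezh2, and in 0.8% of all. The TATA letters were found in 1, the second window of Jarid2, and in 13.6% of all. The ETS letters (8.9% of all) and the CRE letters (1.8% of all) were in none of the 14. Aebp2, Jarid2 and Mtf2 have more than 1 of these windows each, so the counts are not counts of genes. In the first windows of the 10 genes a GC box was found in 6 and a CCAAT box in 5. The first window of Aebp2, where its annotated gene begins, held none of the 6 motifs and 4 CpG dinucleotides, against 21 in its second window. In the first window of each gene the number of CpG ran from 4 to 41 with a median of 27, against a median of 7 over all windows. The motif shares over all windows were not matched for CpG. GC boxes thus lay in windows of genes that were higher with the USP21 shRNA (Aebp2, Jarid2, Phf1 and Phf19) and of genes that were lower (Mtf2, Rbbp4 and Suz12, the last except with equal sums). These matches are letters in a window, and binding was not measured in these files.

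Other genes of the pathway were taken from lists of partners, readers, opposing enzymes and targets. Among the PRC2 partners, Epop (listed as E130012A19Rik), a PRC2.1 subunit of embryonic stem cells, was at 166.8 in the control library and 108.1 with the USP21 shRNA. Its log2 ratio of -0.62 lay on the same side as that of Mtf2. With Epop added to the PRC2.1 sum, the ratio of PRC2.1 to PRC2.2 FPKM was 2.06 in the control library and 0.869 with the USP21 shRNA, a log2 difference of -1.24. This sum was formed after the values had been seen. Lcor and Lcorl, whose loci encode the PALI subunits of PRC2.1, were low, at 0.834 and 1.13 and at 3.74 and 3.97 (log2 ratios 0.40 and 0.08). Ezhip (listed as AU022751), an inhibitor of PRC2, was at 3.03 and 2.67, a log2 ratio of -0.18. Of the 5 partners 1 was lower by at least 0.5 and none was higher by as much, against 8.59% and 10.1% of all genes.

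Both H3K27 demethylases were higher by less than 0.5. Kdm6a was at 10.9 and 13.9 and Kdm6b at 19.8 and 22.9 (log2 ratios 0.34 and 0.20). The acetyltransferases of the same lysine, Crebbp (11.8 and 17.1) and Ep300 (21.1 and 27.2), had log2 ratios of 0.53 and 0.36. All 4 have long transcripts of 5935 to 10820 bases, and after the length correction their log2 ratios were 0.20, 0.02, 0.23 and 0.09. Among CBX proteins, PRC1 subunits that bind H3K27me3, Cbx7 was at 13.0 and 16.2 (log2 ratio 0.31) and Cbx2 at 12.57 in both libraries. Cbx6 was at 14.9 and 11.9 (-0.32) and Cbx8 at 1.12 and 0.751 (-0.52). Of these 4 genes 2 were below 0, near the 49.6% of all genes.

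The H3K4 methyltransferases methylate histone H3 at another lysine. Of their 12 listed subunits, 2 had a log2 ratio of at least 0.5 and none was at -0.5 or lower, against 10.1% and 8.59% of all genes. These 2 were Kmt2a (4.74 and 9.87, log2 ratio 1.04) and Kmt2c (4.70 and 8.71, log2 ratio 0.88). Their transcripts have 16470 and 14967 bases, and the log2 ratios after length correction were 0.64 and 0.497, the latter just under 0.5. The 3 most abundant subunits, Dpy30 (234.2 and 184.5), Ash2l (115.9 and 88.7) and Wdr5 (85.3 and 77.0), had log2 ratios of -0.34, -0.39 and -0.15. The median of the 12 was 0.08, and -0.10 after length correction.

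Finally, 37 developmental regulators and cell-cycle inhibitors known as PRC2 targets were read. Most were at low levels, and 25 reached an FPKM of 0.1 in either library. Of these 25, 4 had a log2 ratio of at least 0.5 and 7 had one of -0.5 or lower. Among all 15316 genes past the same floor the shares were 12.8% and 11.3%. Their median log2 ratio was -0.18, and 0.0046 over all those genes. The median changed sign with the floor, being 0.11 with a floor of FPKM 1. Hand1, a regulator of mesoderm and trophoblast, was at 0.403 and 1.25, a log2 ratio of 1.42. The cell-cycle inhibitors Cdkn2a (11.8 and 5.80) and Cdkn2b (1.97 and 0.935) had log2 ratios of -1.02 and -1.004. After Cdkn2a, the most abundant targets were Gata6 (8.60 and 10.8, log2 ratio 0.32) and Sox1 (6.08 and 8.30, log2 ratio 0.44). The next, chosen after their values were seen, were Gata4 (5.70 and 5.78, log2 ratio 0.02) and Sox17 (4.02 and 3.54, log2 ratio -0.18). PRC2 targets were therefore found on both sides, with no common direction across floors.

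**Figure D5:**
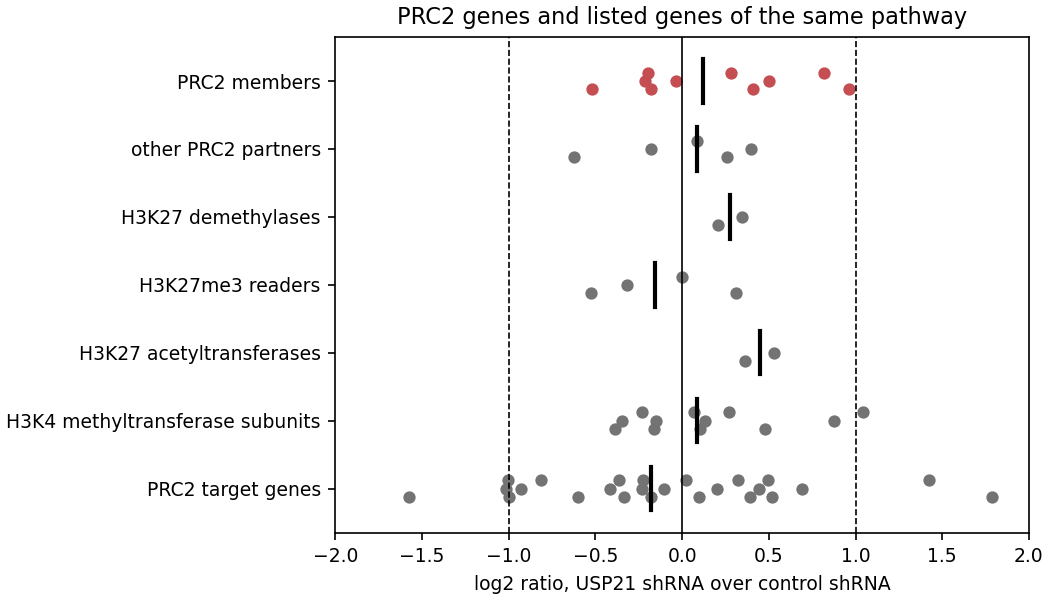
log2 ratio (USP21 shRNA over control shRNA) of the PRC2 genes (red) and of the genes of 6 lists of the same pathway (grey), 1 point per gene past the floor (an FPKM of 1 reached in either library, or 0.1 for the PRC2 target genes), with the list median as a black bar and dashed lines at -1 and 1. Points of a list are offset vertically only to keep them apart. The medians run from -0.18 for the PRC2 target genes to 0.45 for the acetyltransferases, and the target genes spread from -1.57 to 1.79.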

How the data were processed

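RNA-seq of 2 libraries, 1 per group, was analysed. The deposited file of each library lists FPKM values by gene symbol, computed by the authors. The submitters' processing notes name CASAVA 1.8.2, TopHat2 2.0.14, Cufflinks 2.2.1 and the build mm9, with no roles. The annotation and the handling of fragments shared between genes or transcripts are not given in the sources used here. No scaling beyond FPKM is stated, and no count, interval or detection limit could be derived.

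log2 ratios were computed with 0.1 added to each FPKM and set beside all genes that reached an FPKM of 1 in either library (0.1 for target genes). No test was made. Coordinates and transcript lengths (the transcript with the longest coding sequence) came from GENCODE M21 (GRCm38), which is not the build of the files. Of all symbols 98.49% had a length. The length trend was a lowess with span 0.3, tested on simulated data. Genes named from other lists were every one of 4 short lists and otherwise those with an absolute log2 ratio of at least 0.5 and an FPKM of at least 1, and the 3 most abundant. A further gene of the planned lists is not reported here. The PRC2 genes and lists were chosen with earlier results of these data known. Alternatives were other pseudocounts, scalings and floors and the length correction. Trends were computed with statsmodels 0.14.6, figures with matplotlib 3.10.9, and the rest with scipy 1.17.1, pandas 2.3.3 and numpy 2.4.6 in Python 3.11.15.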

Additional observations from a re-analysis of the deposited data

How the results depend on the processing

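Each value was recomputed with pseudocounts of 1 and 0.01, with the libraries rescaled to equal sums, with the median log2 ratio set to 0, with the length trend subtracted and, chosen after seeing the data, with the longest transcript as length. Of 60 values of single PRC2 genes under these, 59 had the sign reported. A changed pseudocount cannot change a sign, and setting the median to 0 moves each value by only 0.0031. The count therefore does not measure how firm the signs are. The exception was Suz12, at 0.14 with equal sums, where Ezh2 (-0.04), Eed (-0.02) and Rbbp4 (-0.0046) came near 0. Equal sums moved the median over all genes from 0.0031 to 0.18 and that of the PRC2 genes to 0.30, and put Aebp2 past 2-fold, at a log2 ratio of 1.14 and as the 1 PRC2 gene there. Relative to the shifted median no PRC2 gene was past 2-fold. The log2 difference between Ezh1 and Ezh2 ran from 0.54 to 0.63 under the same settings except the longest transcript, and that of PRC2.1 over PRC2.2 from -1.08 to -1.07. Scaling or centring a library cannot move either difference beyond the effect of the pseudocount. Beside summed FPKM of 68.8 to 203.5 a pseudocount adds little. For PRC2.1 over PRC2.2 only the length correction could therefore have moved the value much.

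The median of the PRC2 target genes was -0.061 with a pseudocount of 1, -0.0067 with equal sums, 0.0 without a floor and 0.11 with a floor of FPKM 1. Sums of accessory genes were also varied after seeing the data. The log2 difference of PRC2.1 over PRC2.2 was -0.057 without Mtf2, -1.20 without Phf19, -1.33 without Jarid2, -0.86 without Aebp2 and -1.24 with Epop. With 1 library per group no replicate could be left out, and the number of fragments behind low genes such as Phf1 and the target genes is unknown.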
